A study of Mus musculus with 6 samples.

Results

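Metallothioneins and zinc transporters were described in NOR-10 cells, a mouse line of skeletal muscle fibroblasts, with and without D-galactose (D-gal). The set held 10 genes of the 34745 in the deposited table: the metallothioneins Mt1, Mt2 and Mt3, their transcription factor Mtf1, the zinc exporters Slc30a1 and Slc30a5, and the zinc importers Slc39a1, Slc39a6, Slc39a10 and Slc39a14. They were picked by gene name, and each name had 1 row in the table. The D-gal to control differences of these libraries were known when the 10 genes were picked, so their values are given as a description. No p-value is printed for them, and how many passed the threshold of the fit over all genes is stated only beside the share of all genes that did. The control group received PBS and the D-gal group received D-gal, which the study's methods put at 20 mg/mL for 3 days, with 3 libraries in each group. No genetic change is named in the labels for either group, and both are 1 cell line, so the values describe that line. The labels number the libraries within a group but do not say whether they came from separate cultures, so errors and p-values measure the spread between these libraries only, which may be technical.

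Metallothioneins are small cytosolic proteins that bind zinc and copper through clusters of cysteines, and they buffer the free zinc of the cell. When free zinc rises, the zinc finger factor MTF1 binds metal response elements in DNA and activates the metallothionein genes and Slc30a1. Zinc transporters fall into the Slc30 family (ZnT), which moves zinc out of the cytosol into organelles or out of the cell, and the Slc39 family (ZIP), which moves zinc into the cytosol. Mt1 and Mt2 are also induced by glucocorticoids and by other metals, while Mt3 is known mainly from the brain.

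Total counts lay between 13759108 and 20830349 per library, all D-gal libraries below all control libraries, and TMM factors between 0.9855 and 1.015 were used to scale them. With all libraries thinned to the smallest total, the same genes of the set passed the threshold as with the full counts. The fibroblast label was checked against 10 markers, of which 9 had a median of at least 10 counts. The exception, Lum, had at most 1 count in a library. The summed level of these markers was 13710 to 14050 CPM (the usual depth-scaled count) in control and 7299 to 7628 under D-gal. That of 4 epithelial markers was 7.10 to 8.67 and 1.69 to 2.66 CPM, and that of 8 myogenic markers 5.35 to 6.08 and 3.68 to 4.02 CPM. That of 4 endothelial markers was 4.52 to 5.4 CPM in control against 3.09 to 3.38 CPM, without overlap, and that of 4 Schwann cell markers 2.80 to 4.13 against 3.75 to 6.05 CPM, with overlap. The adipocyte markers Adipoq, Cidec and Lep were at 0 in all libraries. The myogenic markers Pax7, Myf5 and Myod1 were at 0 in all libraries. The summed level of 5 leukocyte markers was 17.3 CPM in control replicate 1 and 4.09 to 6.81 in the other libraries. The part of these marker differences in the results on zinc genes was not tested.

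Metal response elements were looked for near the start sites, because MTF1 is known to bind them at metallothionein genes. RefSeq promoters on GRCm38.p6, from 250 bases before to 50 bases after the annotated start, were matched by symbol for Mt1, Mt2, Mt3, Mtf1, Slc30a1, Slc30a5, Slc39a1 and Slc39a10 (2 starts), which is 8 of the 10 genes. Slc39a6 and Slc39a14 were not matched. The element's core was searched on both strands in its 2 forms, TGCACNC and TGCGCNC, which cannot match the same bases on 1 strand. Mt2 held 4 matches, Mt1 held 3, Slc30a1 held 2, and Mt3 and Slc30a5 held 1 each, while the windows of Mtf1, Slc39a1 and Slc39a10 held none. For Mtf1 and Slc39a10 the windows did not take in the start of the deposited gene span (124802104, and 46892852 on the minus strand). Bases around those 2 positions were not searched. Of all 32851 promoters of this length, 25.7% held at least 1 match, 7.11% at least 2, 1.97% at least 3 and 0.517% at least 4. The matches of Mt1, Mt2 and Slc30a1 carry the comparison of the metallothioneins with the exporter and are printed with the bases around them, written 5′ to 3′ on the plus strand, which is the strand of all 3 genes. Capitals mark the core, which reads as its reverse complement where the match is on the other strand.
Mt1 (chr8:94179058-94179080): tcccgctgTGCACACtggcgctc
Mt1 (chr8:94179083-94179105): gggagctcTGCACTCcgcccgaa
Mt1 (chr8:94179101-94179123): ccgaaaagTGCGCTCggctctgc
Mt2 (chr8:94172387-94172409): atcgcctcTGCACCCggcccctc
Mt2 (chr8:94172482-94172504): agacccttTGCGCTCagctcctt
Mt2 (chr8:94172560-94172582): gggagggcGTGTGCAggctctgt
Mt2 (chr8:94172614-94172636): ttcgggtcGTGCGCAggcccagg
Slc30a1 (chr1:191906730-191906752): ggggttccGAGTGCAaagcaaag
Slc30a1 (chr1:191906803-191906825): tccgggccGAGCGCAgtcgccgc

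Relative to the annotated start, the cores of Mt1 lay at -23, 2 and 20 bases, all on the strand of the gene. Those of Mt2 lay at -223, -128, -50 and 4 bases, the first 2 on the strand of the gene and the others on the opposite strand. Those of Slc30a1 lay at -43 and 30 bases, both on the opposite strand. Bases outside these windows were not searched, so the positions and numbers of matches depend on the annotated start used. A match describes letters only, and no binding was measured in these cells.

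**Figure D1:**
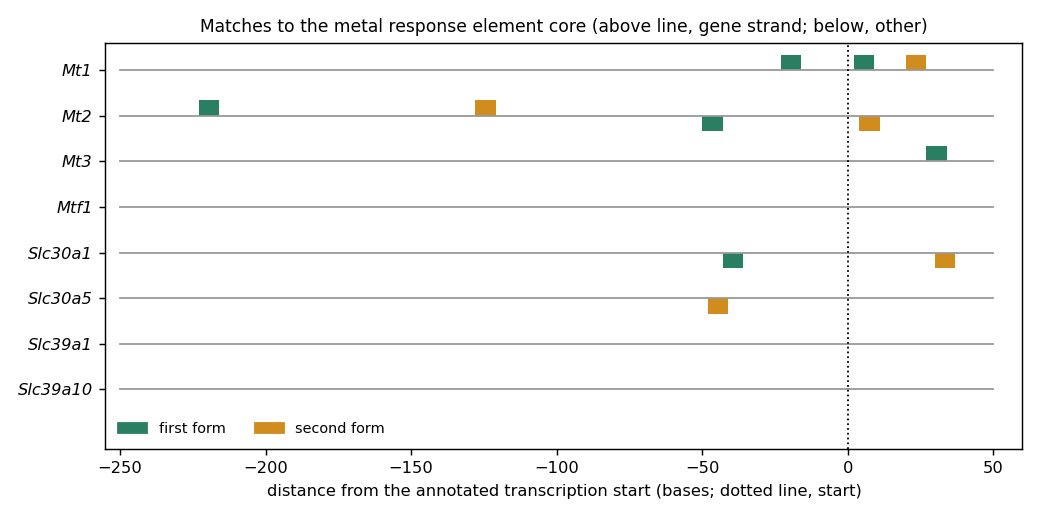
Matches to the 2 forms of the metal response element core along 8 promoters, by distance in bases from the annotated start (x axis); boxes above a line are on the strand of the gene and boxes below it on the other strand, first form TGCACNC and second form TGCGCNC. Mt2 held 4 and Mt1 held 3 matches, and the windows searched for Mtf1, Slc39a1 and Slc39a10 (2 windows, drawn as 1 line) held none.

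The metallothionein genes lie together on mouse chromosome 8 of GRCm38, all on the plus strand. In the deposited table Mt3 (ENSMUSG00000031760) spans 94152607 to 94154148, Mt2 (ENSMUSG00000031762) 94172618 to 94173567 and Mt1 (ENSMUSG00000031765) 94179089 to 94180325. In GENCODE release M21, 5513 bp separate Mt2 from Mt1 and 18517 bp separate Mt3 from Mt2. Of the 31-base words of Mt1, 0% occur in another annotated gene, so its reads can be told from those of Mt2 at that length. Mt2 shares 58.1% of its words, mainly with Gm45774, a gene on the other strand whose exons overlap those of Mt2. No row of the deposited table has that gene name. Whether counting used the strand is not given in the sources used here, so the level of Mt2 is less certain than that of Mt1.

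Mt1, the main inducible metallothionein of most mouse cells together with Mt2, had 3.99 times the D-gal level in control. Its counts were 943, 1068 and 781 in control and 219, 159 and 168 under D-gal. After normalization these were 822, 872 and 789 against 246, 174 and 202, so the highest D-gal library lay far below the lowest control library. The means were 827 ± 41.7 (SD, n = 3) and 207 ± 36.3 (SD, n = 3) normalized counts, a log2 fold change of -1.997 with a standard error (SE) of 0.12. Relative to its mean, the SD was 5.04% in control and 17.5% under D-gal. In bulk libraries, a lower level in every cell and fewer cells with the transcript cannot be told apart.

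Mt2, whose protein binds metals in the same way, showed the larger difference of the pair. Its counts were 442, 376 and 378 in control and 66, 57 and 46 under D-gal, or 385, 307 and 382 against 74.1, 62.2 and 55.4 after normalization. The groups did not overlap, although control replicate 2 lay below the other control libraries. The means were 358 ± 44.3 and 63.9 ± 9.43 normalized counts (SD, n = 3 each), a log2 fold change of -2.48 with an SE of 0.15. The control level was thus 5.58 times the D-gal level for Mt2 and 3.99 times for Mt1. Among the 13407 genes tested, the log2 fold change of Mt2 ranked 19 and that of Mt1 ranked 43 from the lowest. Without control replicate 1, which had the most leukocyte marker counts, the values were -2.42 for Mt2 and -2.003 for Mt1.

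The balance of Mt1 to Mt2 was 2.13, 2.84 and 2.07 counts of Mt1 per count of Mt2 in control and 3.32, 2.79 and 3.65 under D-gal. D-gal replicate 2 lay inside the control range, so the groups overlapped in this ratio. The mean ratios were 2.35 ± 0.429 and 3.25 ± 0.435 (SD, n = 3). Mt1 and Mt2 together made up 69.7 to 71.9 CPM in control and 14.1 to 19.1 CPM under D-gal. The control libraries thus differed little in the sum while they differed in its split. Across the 6 libraries the Pearson correlation of log2 CPM between both genes was 0.986, and 0.295 once each group's mean was removed.

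Mt3, the brain metallothionein, had 0 counts in all 6 libraries. A count of 0 allows up to 0.144 to 0.218 CPM, depending on the library (3 counts of its total, counting error only), so Mt3 was not detectable at this depth in either group. It did not pass the filter on low counts and received no fold change.

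**Figure D2:**
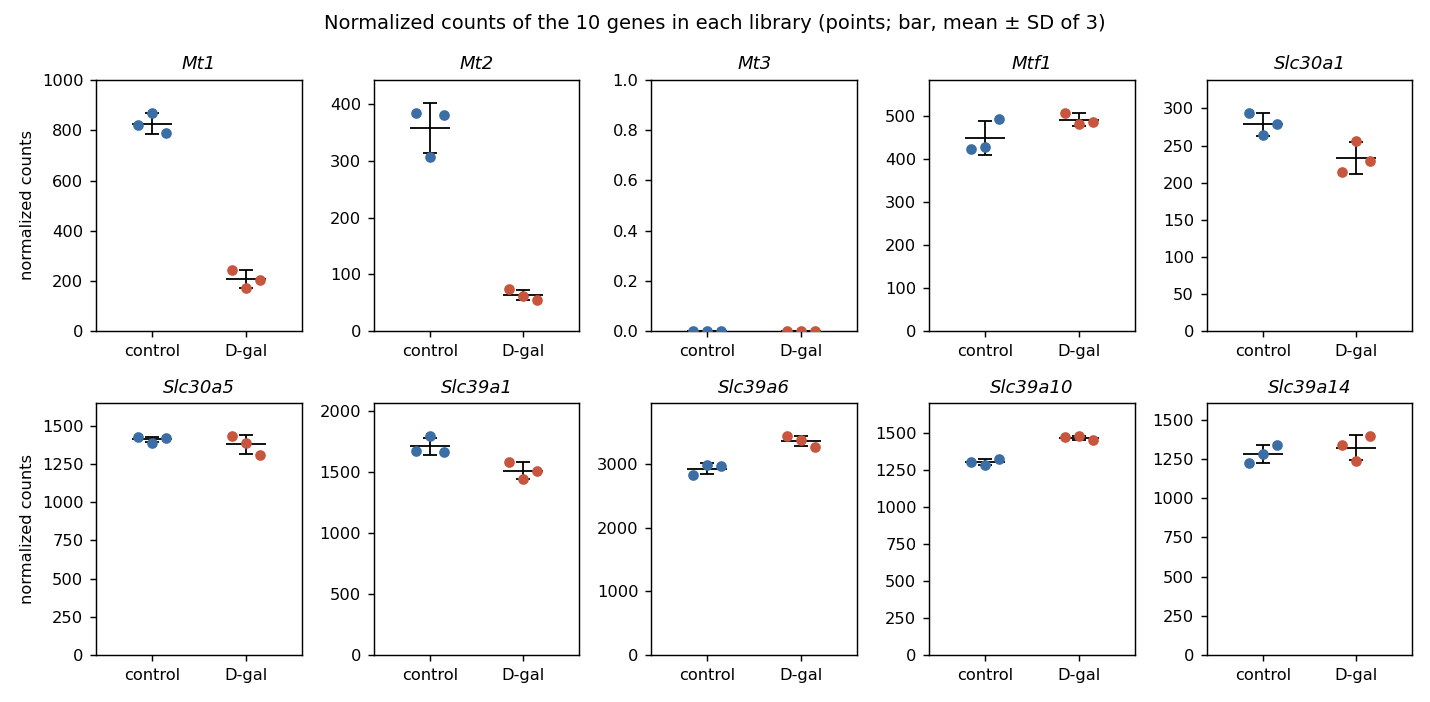
Normalized counts (y axis, from 0) of the 10 genes in the 3 control and 3 D-gal libraries; points are libraries and bars the mean ± SD. For Mt1 and Mt2 all D-gal libraries sit far below all control libraries, Mt3 is at 0 throughout, and the other genes differ by small fractions of their level.

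Mtf1 (ENSMUSG00000028890, chromosome 4, 124802104 to 124849800), which encodes the zinc sensor that switches on metallothionein genes, was slightly higher under D-gal in the mean, within overlapping groups. Its normalized counts were 424, 428 and 493 in control and 507, 481 and 484 under D-gal. Control replicate 3 lay inside the D-gal range, so the groups overlapped. The means were 448 ± 38.7 and 491 ± 14.5 (SD, n = 3), a log2 fold change of 0.13 with an SE of 0.08. A transcript level carries no information on the zinc-bound state of the protein. Exons of 1110065P20Rik, which had 112 to 157 counts per library, overlap those of Mtf1 on the other strand.

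Slc30a1 (ZnT1, ENSMUSG00000037434, chromosome 1, 191906767 to 191913247) is the exporter of the plasma membrane and a known MTF1 target. It had 294.5, 264 and 279 normalized counts in control and 214, 257 and 229 under D-gal. The groups did not overlap, but D-gal replicate 2 and control replicate 2 differed by less than the standard deviation of either group. The log2 fold change was -0.26 with an SE of 0.10, the control level being 1.195 times the D-gal level. Exons of 1700034H15Rik, with 5 to 12 counts per library, overlap those of Slc30a1 on the other strand. Mt1 and Mt2, which hold the same core near their starts, had 3.99 and 5.58 times the D-gal level in control. Slc30a5 and Mt3 hold it as well, the first with a log2 fold change of -0.03 and the second with 0 counts. Whether the core bears on any of these differences was not tested.
Slc30a5 (ZnT5, ENSMUSG00000021629, chromosome 13, 100802649 to 100833427) loads zinc into the early secretory pathway, where zinc enzymes are assembled. Its normalized counts were 1423, 1389 and 1418 in control and 1431, 1390 and 1310 under D-gal. The D-gal range took in the whole control range, with a log2 fold change of -0.03 and an SE of 0.05.

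The importers went in different directions by small amounts. Slc39a6 (ZIP6, ENSMUSG00000024270, chromosome 18, 24579881 to 24603817) and Slc39a10 (ZIP10, ENSMUSG00000025986, chromosome 1, 46807544 to 46892852) are closely related proteins of the plasma membrane that form a complex with each other. Slc39a6 had 2829, 2978 and 2967 normalized counts in control and 3434, 3376 and 3271 under D-gal. Slc39a10 had 1299, 1283 and 1321 in control and 1472, 1476 and 1451 under D-gal. Both were higher in all D-gal libraries than in any control library. The log2 fold change was 0.20 (SE 0.04) for Slc39a6 and 0.17 (SE 0.04) for Slc39a10, so both partners differed to a like degree. Slc39a10 varied little within a group, with an SD of 1.47% of the mean in control and 0.939% under D-gal.
Slc39a1 (ZIP1, ENSMUSG00000052310, chromosome 3, 90248172 to 90253612), a widely expressed importer of the plasma membrane, had 1670, 1793 and 1664 normalized counts in control and 1585, 1440 and 1510 under D-gal. It was lower in all D-gal libraries, with a log2 fold change of -0.18 and an SE of 0.05. It shares 27.7% of its words with other genes, mainly the pseudogene Slc39a1-ps, which had 7 to 26 counts per library.
Slc39a14 (ZIP14, ENSMUSG00000022094, chromosome 14, 70303469 to 70351425) also carries iron and manganese. Its normalized counts of 1223, 1279 and 1338 in control overlapped those of 1338, 1236 and 1395 under D-gal. The log2 fold change was 0.05 with an SE of 0.06.

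Of the 10 genes, 9 were tested, and 5 had an adjusted p-value under 0.05 in edgeR's quasi-likelihood test: Slc39a6 and Slc39a10 higher, and Mt1, Mt2 and Slc39a1 lower. At that threshold 34.8% of all genes tested were called (16.9% higher and 17.8% lower). Mt1 and Mt2 were also past the 1 log2 unit that the study's methods require, as were 4.21% of all genes tested (2.37% higher and 1.83% lower). The groups did not overlap in 6 of the 9 genes, 2 of them higher under D-gal and 4 lower, nor in 49.1% of all genes tested (24.1% higher and 25% lower). Since the genes were picked with this contrast known, nothing is read from these counts. The call of Slc39a1 was lost in 4 of the 6 fits with 1 library left out, those without control replicate 1, control replicate 2, D-gal replicate 2 and D-gal replicate 3. Slc30a1 was called only without D-gal replicate 2, among the same 6 fits.
The 7 genes other than the metallothioneins lay between -0.26 and 0.20 on the log2 scale, inside the range from -0.44 to 0.48 that holds the middle of all genes tested, between the 10th and the 90th percentile.

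**Figure D3:**
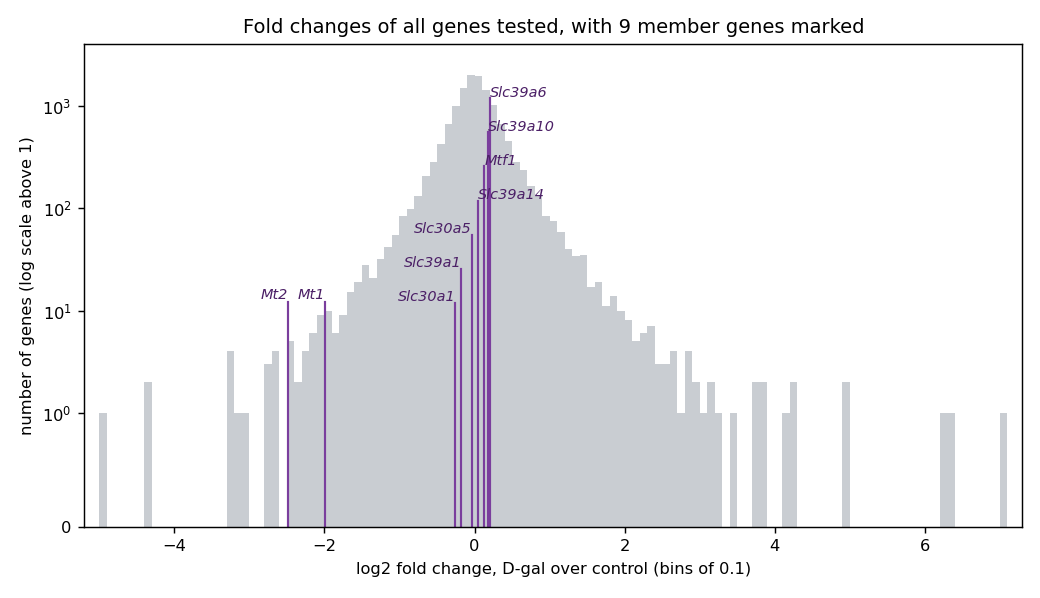
Number of genes (y axis, log scale above 1) by log2 fold change of D-gal over control (x axis, bins of 0.1) for the 13407 genes tested, with vertical lines at the 9 genes of the set. Mt2 (-2.48) and Mt1 (-1.997) lie in the sparse lower tail, and the other 7 lie in the dense middle.

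Levels between genes were compared as CPM divided by the kilobases of merged GENCODE M21 exons. The order in control was Slc39a1 (43.1 ± 1.83), Slc39a6 (42.8 ± 1.22), Mt1 (39.6 ± 1.99), Mt2 (36.3 ± 4.49), Slc39a10 (12.7 ± 0.187), Slc30a5 (11.5 ± 0.151), Slc39a14 (7.23 ± 0.326), Slc30a1 (3.17 ± 0.176) and Mtf1 (2.999 ± 0.259), each with the SD over 3 libraries, with Mt3 at 0. Neighbours among the first 4 overlapped over the libraries, and so did Slc30a1 and Mtf1, while the other neighbours were apart. Under D-gal Mt1 stood at 9.91 ± 1.74 and Mt2 at 6.48 ± 0.956, below Slc30a5 (11.3 ± 0.503) and on either side of Slc39a14 (7.47 ± 0.455). There Mt1 overlapped Slc30a5, and Mt2 overlapped Slc39a14. The summed per-length level of the 4 importers was 106 ± 2.72 in control and 109 ± 2.68 under D-gal, and that of the 2 exporters 14.7 ± 0.321 and 13.9 ± 0.523.
This order rests on the length used. The merged exons of Mt1 cover 1246 bases, its whole span with introns included, whereas the length behind the deposited FPKM is 540 bases. In the deposited FPKM, Mt1 was therefore the highest of the set in control, at 90.1 ± 4.64 (SD, n = 3), ahead of Slc39a1 at 42.5 ± 1.82 and Mt2 at 37.9 ± 4.69. Slc30a5 likewise stood at 26.1 ± 0.353 in FPKM, with a length of 3178 bases against 7294 merged ones. The length does not enter a comparison of 1 gene between groups.

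The rest of both transporter families was read from a list of 19 genes, 18 transporters and Mt4, of which 11 passed the filter on low counts. At an adjusted p-value under 0.05 (edgeR's quasi-likelihood test, Benjamini-Hochberg adjustment over all genes tested), 5 rose and 1 fell, which is 54.5% of those tested against 34.8% of all genes. None of the 11 reached a log2 fold change of 1 in size, and the median was 0.19 against 0.0036 for all genes tested. The count was 4 to 6 with 1 library left out in turn. Slc39a8 (ZIP8), the closest relative of Slc39a14 and a carrier of zinc and manganese, rose most among those called. Its counts of 520, 557 and 482 in control and 580, 603 and 524 under D-gal gave 465 ± 19.0 and 647 ± 14.0 normalized counts (SD, n = 3). The log2 fold change was 0.48 (SE 0.06, edgeR adjusted p = 5.96e-04), and the groups did not overlap.
Slc39a13 (ZIP13), which releases zinc from vesicles of the secretory pathway and is needed by connective tissue, rose by 0.42 on the log2 scale (SE 0.06, edgeR adjusted p = 0.00148), from 540 ± 31.8 to 723 ± 19.2 normalized counts (SD, n = 3). Its exons overlap those of Psmc3 on the other strand. Slc39a7 (ZIP7), which releases zinc from the endoplasmic reticulum, rose by 0.27 (SE 0.04, edgeR adjusted p = 0.00105). It shares 76.8% of its words with other genes, mainly the overlapping Gm20427 on its own strand, and is therefore uncertain. The other genes called were Slc39a11 (0.28) and Slc30a4 (0.19), which rose, and Slc30a7 (-0.15), an exporter of the Golgi, which fell. The pair of ZIP6 and ZIP10 thus had log2 fold changes of the same sign as 4 of these importers. The importers Slc39a1 (-0.18) and Slc39a3 (-0.07, not called) had the opposite sign. Over both lists together, importers and exporters alike had either sign.
Of the 8 genes that were not tested, Slc30a2 and Slc30a8 had 0 counts in all libraries, and Slc30a3, Slc30a10, Slc39a2, Slc39a5, Slc39a12 and Mt4 had at most 9 counts in a library. Mt4, the metallothionein of squamous epithelium, had 2 counts over the control libraries and 0 over the D-gal libraries.

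**Figure D4:**
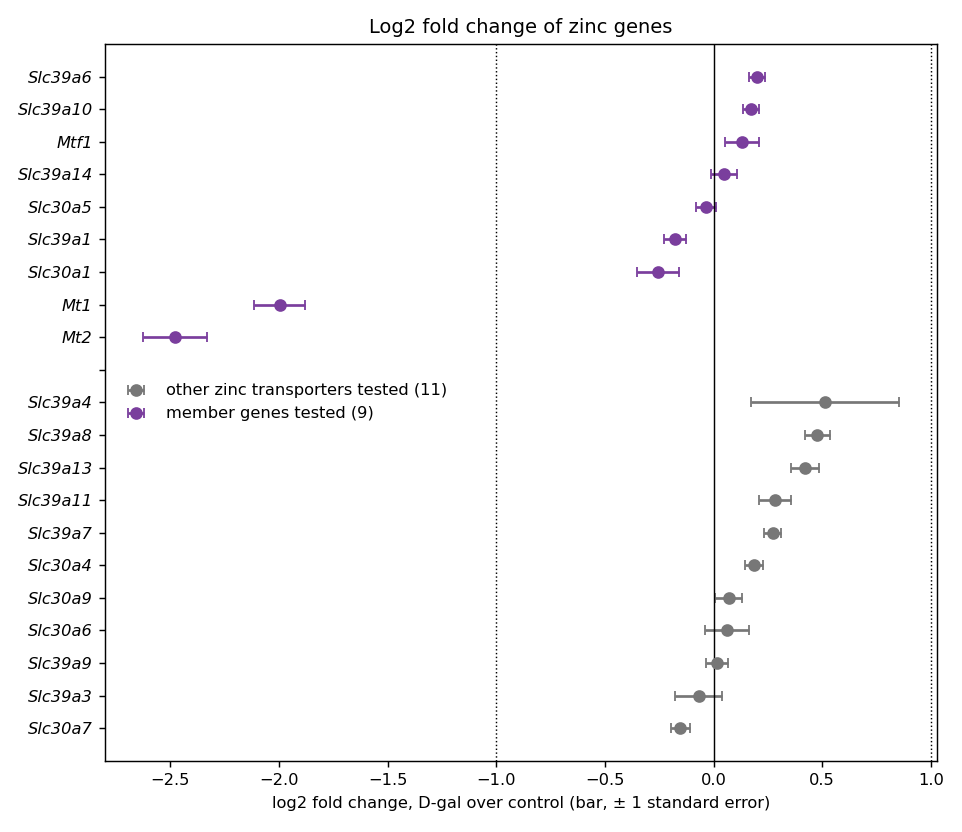
Log2 fold change of D-gal over control (x axis; bars, ± 1 standard error) for the 9 tested genes of the set and the 11 other tested zinc transporters; dotted lines mark a log2 fold change of 1 in either direction. Mt1 and Mt2 are the only genes plotted outside the dotted lines, and all plotted transporters lie between -0.26 and 0.51.

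On the same merged-exon scale, Slc39a4, an intestinal importer, stood at 0.224 CPM per kilobase in control. Slc39a7 stood at 50.5, a level that is uncertain because of the bases it shares with Gm20427.

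**Figure D5:**
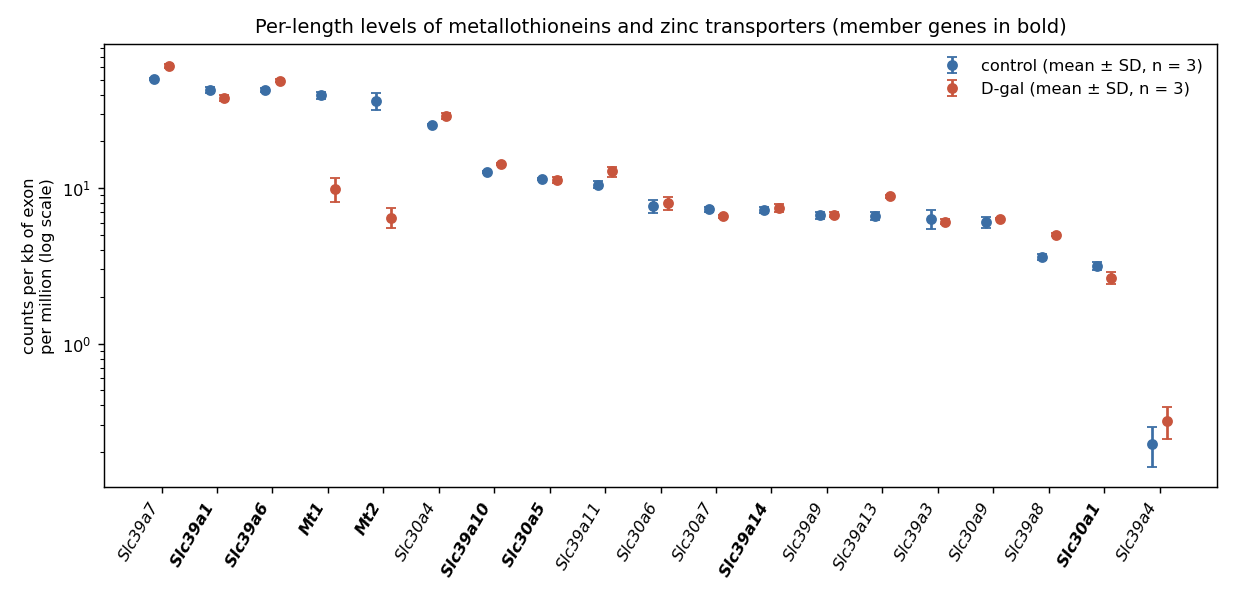
CPM per kilobase of merged exon (y axis, log scale) in control and D-gal (mean ± SD, n = 3) for 2 metallothioneins and 17 zinc transporters, ordered by control level, with the genes of the set in bold. Mt1 and Mt2 drop from 39.6 to 9.91 and from 36.3 to 6.48. The transporters differ by less, with log2 fold changes between -0.26 and 0.51. For some of them the groups do not overlap, such as Slc39a8 (3.61 in control and 5.03 under D-gal).

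Copper is the other metal that metallothioneins bind, and 18 genes of copper handling were tested. At an adjusted p-value under 0.05, 4 rose and 5 fell (50% against 34.8% of all genes), with a median log2 fold change of 0.18. The count of 9 was 5 without D-gal replicate 1. Steap4, a metalloreductase of iron and copper, fell by 2.29 on the log2 scale (SE 0.34, edgeR adjusted p = 0.00157), from 45, 33 and 35 counts to 9, 5 and 4. Its relative Steap3 fell by 1.02 (SE 0.12, edgeR adjusted p = 4.47e-04), and Cp, the copper-carrying ferroxidase ceruloplasmin, fell by 0.97 (SE 0.14, edgeR adjusted p = 0.00131). The exons of Cp overlap those of Hps3 on the other strand. Atp7b, a copper pump, had 2, 4 and 10 counts in control and 12, 15 and 15 under D-gal. Its log2 fold change of 1.71 (edgeR adjusted p = 0.0405) was no longer called in 5 of the 6 fits with 1 library left out (all but that without control replicate 3). Slc31a1, the copper importer of the plasma membrane, and Atp7a, the main copper pump of fibroblasts, had log2 fold changes of -0.18 and -0.17, of which the first passed the test (edgeR adjusted p = 0.0196) and the second did not (0.105).

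Iron handling shares carriers such as Slc39a14 with zinc. Of 20 genes tested, 1 rose and 5 fell at an adjusted p-value under 0.05 (30% against 34.8% of all genes), with a median log2 fold change of -0.06. Fth1, the heavy chain of the iron store ferritin, fell by 0.29 on the log2 scale (SE 0.02, edgeR adjusted p = 6.94e-05), from 22690 ± 284.5 to 18510 ± 153 normalized counts (SD, n = 3). Ftl1, the other ferritin chain, fell by 0.81 (SE 0.12, edgeR adjusted p = 0.00174). It shares 64.15% of its words, mainly with Ftl1-ps1, and is therefore uncertain. Tfrc, the transferrin receptor through which cells take up iron, rose by 0.31 (SE 0.04, edgeR adjusted p = 0.00104). Steap3, Cp and Heph are in the copper list too.

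Genes known to respond to heavy metals besides metallothioneins were tested as a list of 14. At an adjusted p-value under 0.05, 2 rose and 6 fell (57.1% against 34.8% of all genes), with a median log2 fold change of -0.19. Ndrg1, which is induced by nickel and by low oxygen, fell from 740 ± 22.8 to 286 ± 34.4 normalized counts (SD, n = 3), with -1.37 on the log2 scale (SE 0.09, edgeR adjusted p = 2.99e-05). It overlaps 2 genes on the other strand. Sqstm1, an adaptor of selective autophagy, fell by 0.37 (SE 0.03, edgeR adjusted p = 8.61e-05) and overlaps Mrnip on the other strand. Hmox1, the heme oxygenase that cadmium and heme induce, fell by 0.26 (SE 0.04, edgeR adjusted p = 0.00213). Hspa1b, an inducible heat shock protein, rose by 0.82 (SE 0.06, edgeR adjusted p = 5.4e-05), but shares 68.1% of its words, mainly with Hspa1a, and is therefore uncertain. Hmox1, Slc31a1, Atp7a, Ftl1 and Slc39a3 were named here after their values were seen.

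Glucocorticoids induce Mt1 and Mt2 as well, and 16 genes of that response were tested. At an adjusted p-value under 0.05, 3 rose and 9 fell (75% against 34.8% of all genes), with a median log2 fold change of -0.15. Lcn2, a secreted carrier of iron-binding siderophores, fell from 228 ± 15.9 to 82.8 ± 26.4 normalized counts (SD, n = 3), with -1.46 on the log2 scale (SE 0.20, edgeR adjusted p = 9.02e-04). Mgst1, a microsomal glutathione transferase, fell by 0.80 (SE 0.09) and Pdk4, a kinase that restrains pyruvate oxidation, by 0.73 (SE 0.07), with adjusted p-values of 3.7e-04 and 1.36e-04 from edgeR. Dusp1, a phosphatase that switches off MAP kinases, went the other way and rose from 1277 ± 71.8 to 2446 ± 24.6 normalized counts (SD, n = 3), with 0.94 on the log2 scale (SE 0.05, edgeR adjusted p = 9.03e-06). The genes of the list that passed the test thus had either sign, and Mt1 and Mt2 differed by more than any of them on the log2 scale.

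Genes whose pattern over the 6 libraries was most like that of Mt1 and Mt2 were read from the Pearson correlation of log2 CPM among 10403 tested genes with a mean of at least 100 counts. Among the nearest to Mt1 were Thy1 (r = 0.99998) and Arhgap10 (0.99956), and the nearest to Mt2 were Kif23 (0.99983), Tnip1 (0.99979) and Il17rd (0.99952). The 6 libraries form 2 groups far apart in Mt1 and Mt2, so these correlations largely describe that split and say nothing of shared control. Thy1 is also in the fibroblast marker list. The log2 fold changes of these 5 genes, -0.33 to -0.86, were all smaller in size than those of Mt1 and Mt2.

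Matches to the metal response element core were also counted for the 9722 other tested genes with a matched promoter and a unique symbol, a count chosen after the values had been seen. Of the 373 with at least 3 matches, 18.5% rose and 18.2% fell at an adjusted p-value under 0.05, against 16.6% and 18.2% of the 5768 with none. The median log2 fold change was 0.012 in the first and 0.00042 in the second set. Of the 941 with 2 matches, 20.2% rose and 15.7% fell, with a median of 0.026. Of the 2640 with 1 match, 17.7% rose and 17.9% fell, with a median of 0.010. These shares are a description of the other genes only.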

How the data were processed

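RNA-seq of 6 NOR-10 libraries was used, grouped by the sample labels. The deposited table gives for each gene a raw read count per library and an FPKM value made by the authors. The gene length behind each FPKM was back-calculated from the count and the library total. According to the methods, the authors used FastQC for quality control and Trimmomatic for trimming, and a small RNA kit is named where the labels name an RNA-seq kit, while the submitters' processing notes name HISAT2 (version 2.0.4). The counting tool, strand setting and annotation are not given in the sources used here. Of the 34745 identifiers, 34344 are in GENCODE release M21 (GRCm38).

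Counts were fitted for all genes with edgeR (version 4.0.16, R 4.3.3), using TMM, filterByExpr (13407 genes kept), the quasi-likelihood test and Benjamini-Hochberg adjustment, without covariates. Thresholds were an adjusted p-value of 0.05 and, for differential expression, a log2 fold change of 1. Each count was scaled by the effective (TMM-adjusted) library size to the mean of these sizes, giving normalized counts. Standard errors are the log2 fold change over the square root of F. Total counts of 13759108 to 20830349 set the precision, and no replicate pair was a duplicate (chi-square over degrees of freedom, 5.998 to 9.42).

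The 10 genes, the gene lists, tests and alternatives were chosen with earlier results of these data known, and the lists were written from general knowledge. All 10 genes are named, and from each other list the 3 with the smallest p and all that passed both thresholds, with a few more named to complete a count or a family. Alternatives were DESeq2 (version 1.42.0), RLE size factors, other count filters, a replicate block, each library left out, thinned counts (seed 7) and limma (version 3.58.1) on log2(FPKM + 1) or log2(FPKM + 0.1). The fits were tested on simulated data with 200 known changes. There edgeR recovered 190 with 6.40% of its calls false, and DESeq2 recovered 185 with 3.14% false. These 200 changes among 13407 genes were far fewer than the 4661 genes called at the adjusted p-value in the data. The simulated shares therefore need not carry over to those calls. Of the genes most like Mt1, 1 that the likeness rule picked is not reported here.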

Additional observations from a re-analysis of the deposited data

How the results depend on the processing

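The log2 fold changes of the 9 tested genes of the set kept their sign under all 14 alternatives, that of Slc30a5 coming as near to 0 as -2.23e-07. That of Mt1 lay between -2.14 and -1.88 and that of Mt2 between -2.60 and -2.29, and both passed both thresholds in each fit. Slc39a1 was no longer called with the replicate block or in either limma fit on FPKM. Of all genes tested, 564 were differentially expressed. Limma on log2(FPKM + 1), a scale that understates the change of low genes, gave 120, and the edgeR adjusted p-value without a fold change criterion gave 4661. For copper handling genes, DESeq2 called 5 in place of 9, and leaving out 1 library at a time gave 5 to 7. For the other lists the number called stayed within 1.5 times its value, that of the zinc transporters outside the set falling from 6 to 4 without control replicate 1. At least 2 of Slc39a11, Slc30a4 and Slc30a7 were then not called, and Slc31a1, Hmox1 and Ftl1 were not followed on their own. Of the genes picked from the lists by their p-value or by both thresholds, Atp7b alone lost its call at the adjusted p-value. It did so in 8 of its alternatives, among them DESeq2 (adjusted p = 0.0885), with adjusted p-values of 0.0615 to 0.124 over those 8. Steap3 fell short of 1 log2 unit without control replicate 2 (-0.988) and without D-gal replicate 2 (-0.91). It also fell short in limma on log2(FPKM + 1) (-0.62) and on log2(FPKM + 0.1) (-0.94). Steap4 (-0.53) and Lcn2 (-0.90) fell short on log2(FPKM + 1), and Atp7b on log2(FPKM + 0.1) (0.72). The replicate block gave 530 differentially expressed genes, and 3982 at the adjusted p-value alone. The replicate numbers were not taken to pair the samples: no label says what they share, and deviations from the group means correlated between -0.011 and 0.028 in libraries of the same number. A level of at most a few counts, as for Mt3 and Mt4, cannot be compared at this depth.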
